A study of Mus musculus with 24 samples.

Results

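Whether the SMA genotype acts on gene expression differently in spinal motor columns than in other nervous tissue was asked with 1 contrast over all 24 arrays of the series. The contrast takes the SMA minus WT difference averaged over the medial (MMC) and lateral (LMC) motor columns and subtracts that averaged over dorsal root ganglion (DRG) and raphe. It is called the interaction here, and a positive value means that SMA arrays stood higher relative to WT in the motor columns than in the other tissues. Of 19057 genes with a probe of their own on the array, 11199 were detected on all 3 arrays of at least 1 group and entered the test. By limma's moderated test, 2 of these 11199 genes (0.0179%) passed an adjusted p of 0.05, and both were higher: Crip2 and Padi1.

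The 8 groups hold 3 biological replicates each: WT and SMA mice of the FVB strain at postnatal day 4, each sampled in the MMC and LMC of the spinal cord, in the DRG and, from the brain stem, as raphe cells. SMA stands, as understood here, for spinal muscular atrophy; the allele behind it and the way in which cells or tissue were collected are not given in the sources used here. RNA was prepared with the Absolutely RNA Nanoprep Kit and amplified with the WT-Ovation Pico RNA Amplification System, both made for very small inputs, and then hybridised to single-colour Illumina bead arrays. The labels do not say whether 1 animal gave several tissues.

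Spinal muscular atrophy follows from too little SMN, a protein that helps to assemble the small nuclear ribonucleoproteins of the spliceosome in every cell type, yet motor neurons are the cells known to be lost. Motor neurons of the medial column supply axial muscles and those of the lateral column supply limb muscles. The DRG holds cell bodies of sensory neurons and satellite glia, and the raphe nuclei hold serotonergic neurons. One pathway studied in this disease is that of p53, a transcription factor that is stabilised under DNA damage and other stresses and switches on genes of growth arrest, repair and cell death.

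The tissue labels were set against defining markers. Mnx1, a homeobox factor of motor neurons, was detected on 6 of 6 MMC and 6 of 6 LMC arrays and on 0 of 6 DRG and 0 of 6 raphe arrays. Scn10a, a sodium channel of nociceptors, was detected on 6 of 6 DRG arrays, 1 of 6 MMC arrays and no LMC or raphe array. Tph2, which makes serotonin, lay between 10.87 and 11.98 on the raphe arrays (log2 intensity, the scale of every level below). It lay at 4.47 to 4.98 on the MMC arrays, where it was not detected. Tph2 was also detected on 5 of 6 LMC arrays, at levels up to 7.67, and on 6 of 6 DRG arrays, at 5.50 to 6.50. Motor columns were not free of glial RNA: Mbp, a myelin protein, lay between 10.72 and 11.62 in MMC and between 7.42 and 9.01 in LMC. Since an array gives the RNA of all cells in a sample together, fewer cells of a type and less RNA per cell cannot be told apart.

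Arrays of the motor columns were the noisier ones. Between 38.2 and 44.0% of probes were detected per MMC array and between 33.7 and 42.9% per LMC array, against 43.8 to 49.7% in DRG and 43.6 to 47.7% in raphe. The median SD of a gene within a group came to 0.51 for MMC, 0.44 for LMC, 0.33 for DRG and 0.38 for raphe. The 6 arrays of each tissue shared 1 slide, so that tissue and slide cannot be told apart. Within every slide the WT arrays took the first 3 positions and the SMA arrays the last 3, so that genotype and position on the slide cannot be told apart either. SMA LMC replicate 2 stood apart most, with 33.7% of probes detected.

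The promoter windows of the 2 genes that passed are shown first, since both genes rose with genotype in the motor columns, together with those of Ccng1 and Gtse1, 2 genes of the p53 pathway described below. The windows are RefSeq sequences of the mouse assembly GRCm38.p6, each from 250 bases before to 50 bases after an annotated start, printed 5′ to 3′ on the gene's strand. Crip2 and Gtse1 have 2 such windows each and the downstream one is printed; of the genes tested, 9015 had at least 1. Capitals mark matches, on either strand, to the 3 motifs searched. The GC box was searched as GGGCGG. The core promoter element was the TATA box, which was searched with the letters TATAAA. The p53 decamer is the 10-letter unit of the p53 response element. Overlapping matches were counted separately.
Crip2, chr12:113140355-113140654, plus strand: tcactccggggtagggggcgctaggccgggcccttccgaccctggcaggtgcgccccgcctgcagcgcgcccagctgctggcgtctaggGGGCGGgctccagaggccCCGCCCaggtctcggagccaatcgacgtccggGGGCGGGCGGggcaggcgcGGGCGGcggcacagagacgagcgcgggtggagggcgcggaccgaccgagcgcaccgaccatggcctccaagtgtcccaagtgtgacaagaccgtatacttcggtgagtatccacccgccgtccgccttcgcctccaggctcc
Padi1, chr4:140845729-140846028, minus strand: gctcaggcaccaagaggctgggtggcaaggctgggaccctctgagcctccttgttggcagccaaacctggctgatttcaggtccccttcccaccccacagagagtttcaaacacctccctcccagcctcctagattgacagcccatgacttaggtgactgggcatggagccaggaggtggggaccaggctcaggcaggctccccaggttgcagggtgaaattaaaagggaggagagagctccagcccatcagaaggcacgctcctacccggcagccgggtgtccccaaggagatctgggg
Ccng1, chr11:40755237-40755536, minus strand: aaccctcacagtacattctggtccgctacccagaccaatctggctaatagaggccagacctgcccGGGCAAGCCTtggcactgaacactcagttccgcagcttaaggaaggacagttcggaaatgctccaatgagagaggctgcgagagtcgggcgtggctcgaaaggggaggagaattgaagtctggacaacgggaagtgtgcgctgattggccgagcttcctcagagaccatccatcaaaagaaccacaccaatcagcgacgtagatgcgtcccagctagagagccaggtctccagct
Gtse1, chr15:85859696-85859995, plus strand: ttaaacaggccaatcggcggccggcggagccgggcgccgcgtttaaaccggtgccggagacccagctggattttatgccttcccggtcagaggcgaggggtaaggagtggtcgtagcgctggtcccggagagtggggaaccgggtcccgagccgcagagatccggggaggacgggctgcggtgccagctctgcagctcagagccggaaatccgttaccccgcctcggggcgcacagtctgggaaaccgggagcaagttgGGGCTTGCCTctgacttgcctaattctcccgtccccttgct

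The Crip2 window held 5 GC boxes, and its upstream window held 4. No match to any of the 3 motifs was found in the Padi1 window. Ccng1 and Gtse1 each held 1 p53 decamer in the windows printed, while the upstream window of Gtse1 held no match to any of the 3 motifs. Such matches are common: a p53 decamer was found in 7.05% of the 11616 windows of the genes tested, a GC box in 61.2% and a TATA box in 7.75%. A match is a description of the letters in the window and not a binding site.

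Smn1, the mouse gene for SMN, was read first because it checks the genotype labels. It was detected on all 12 WT arrays, at levels between 9.39 and 10.81, and on 0 of the 12 SMA arrays. The WT level was at least 26.8-fold above the background limit of the SMA arrays for MMC, 21.7-fold for LMC, 26.0-fold for DRG and 27.8-fold for raphe. Because every SMA level of Smn1 is only a bound, its fitted interaction of -0.05 is not read as a difference between tissues. The same limit holds for any gene that lay below background in a group: its fitted difference there is not exact.

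Crip2, on chromosome 12, encodes a small protein made of LIM domains, zinc-binding modules that hold other proteins together. In MMC its level was 8.18, 8.76 and 8.69 on the WT arrays and 10.48, 10.51 and 10.13 on the SMA arrays. In LMC it was 6.26, 6.54 and 6.98 in WT and 8.33, 8.65 and 7.81 in SMA. Every SMA array thus stood above every WT array in both columns, although the LMC levels as a whole lay lower than those of MMC.

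In the other tissues the picture differed. Crip2 in DRG was 11.51, 11.09 and 11.21 in WT and 11.20, 11.22 and 11.11 in SMA, so that the groups overlapped at a level above that of either column. In raphe it was 8.86, 8.76 and 8.99 in WT and 9.07, 9.40 and 9.21 in SMA, a small shift without overlap in the same direction as in the columns. SMA minus WT came to 1.83 for MMC and 1.67 for LMC, beside -0.09 for DRG and 0.36 for raphe (log2). The interaction for Crip2 was 1.62 (SE 0.24, 95% confidence interval 1.12 to 2.12, adjusted p = 0.00925), with all 6 SMA arrays of the columns above their WT counterparts.

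The MMC and LMC parts of the Crip2 difference were close in size. Against both other tissues together the MMC part was 1.70 (adjusted p = 0.0206) and the LMC part 1.54, which did not pass (adjusted p = 0.164). Between MMC and LMC the difference in genotype effect was 0.16, with an adjusted p of 0.921. Against DRG alone the motor columns differed by 1.84 (adjusted p = 0.0278), and against raphe alone by 1.40 (adjusted p = 0.0982). Crip2 was detected on all 24 arrays and passed in the interaction under all 39 alternative settings, with values from 0.89 to 1.79 and adjusted p-values from 0.00206 to 0.0338. It is represented by 1 probe, so that no other probe could be set beside it.

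Padi1, on chromosome 4, encodes a peptidylarginine deiminase, an enzyme that turns arginine in proteins into citrulline and is best known from skin. In MMC its level was 5.15, 6.88 and 5.55 in WT, where 2 of 3 arrays detected it, and 9.60, 10.26 and 10.12 in SMA. In LMC it was 4.59, 4.87 and 4.58 in WT, below background on every array, and 5.34, 6.45 and 4.97 in SMA, detected on 2 of 3. The gene was therefore bright in SMA MMC, while in SMA LMC it stayed close to background. In LMC the SMA level was at least 1.26-fold above the background limit.

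Padi1 in DRG was 6.34, 7.34 and 6.59 in WT and 6.48, 6.73 and 6.24 in SMA, and in raphe 4.63, 5.66 and 5.15 in WT and 5.02, 4.56 and 4.84 in SMA. The genotypes overlapped in both of these tissues, and in raphe no SMA array detected the gene. With WT LMC and SMA raphe below background, the fitted size is not exact. The interaction was 2.83 (SE 0.44, interval 1.91 to 3.74, adjusted p = 0.00956), made of differences of 4.13 for MMC, 0.91 for LMC, -0.27 for DRG and -0.34 for raphe. Taken alone, MMC differed from the other tissues by 4.44 (adjusted p = 0.000354), whereas the LMC part of 1.22 did not pass (adjusted p = 0.879). The test between the columns gave 3.22 with an adjusted p of 0.0831. Padi1 lost its call under 1 of 39 alternatives, where signals were floored at 16 without normexp correction (adjusted p = 0.0638).

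**Figure D1:**
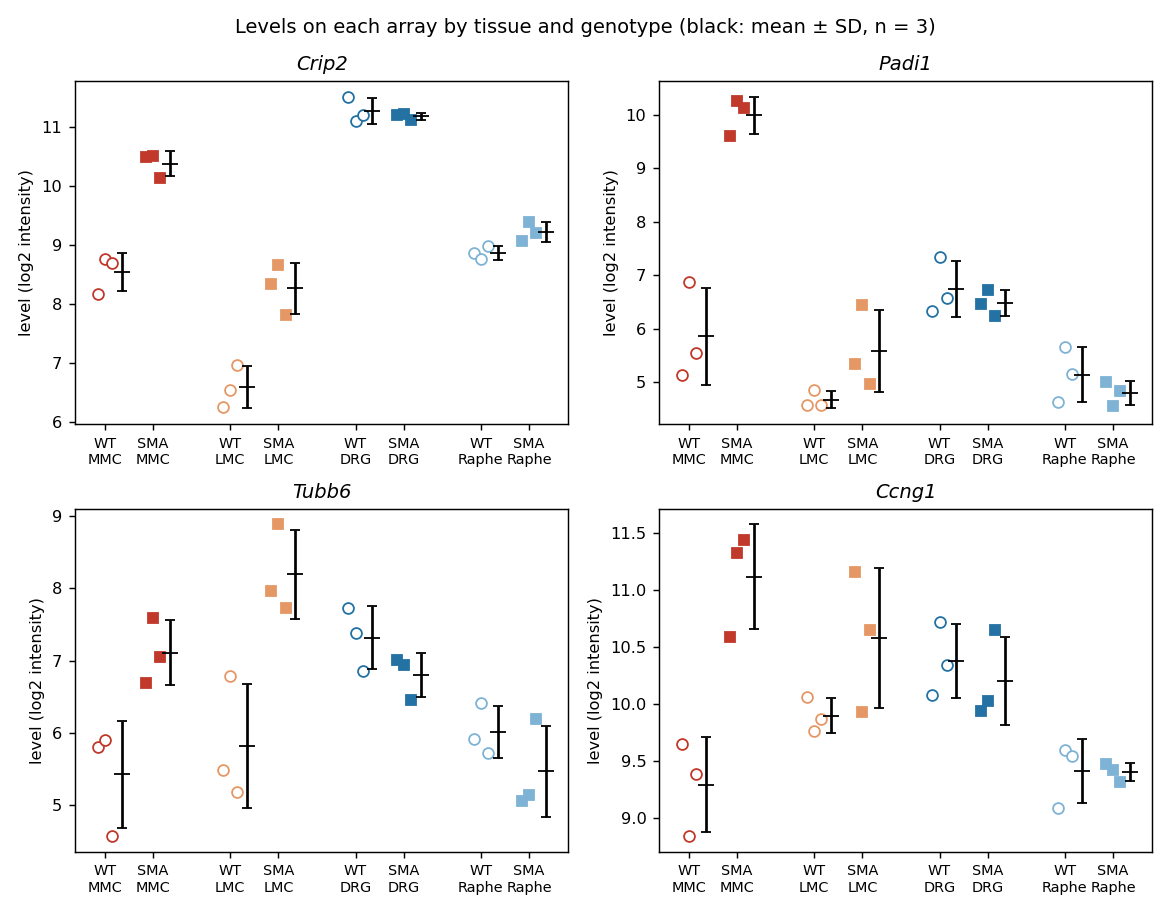
Level (log2 intensity) of Crip2, Padi1, Tubb6 and Ccng1 on each of the 24 arrays, by tissue and genotype, with WT as open circles, SMA as filled squares and the mean ± SD of 3 arrays in black. Crip2 was higher on every SMA array of both columns and level in DRG, while the Padi1 difference was 4.13 in MMC and 0.91 in LMC.

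Below these 2 genes, 855 genes (7.63% of those tested) had an unadjusted p under 0.05, 531 of them higher (4.74%) and 324 lower (2.89%). Over all genes tested, 54.5% had an interaction above 0 and the median was 0.04. The 8 next genes in the higher direction did not pass the adjusted threshold. The interactions of the 7 reported here, in order of their p, were 2.56 for Tubb6, a beta-tubulin, 2.00 for Polk, a translesion DNA polymerase, 1.35 for Ccng1, a cyclin of the p53 pathway, 1.18 for Dennd3, an activator of Rab proteins, 2.09 for Itpripl1, 1.72 for Flad1, which makes the cofactor FAD, and 0.51 for Tle4, a transcriptional corepressor.

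Tubb6 came nearest to the threshold (SE 0.48, adjusted p = 0.075). In MMC its level was 5.80, 5.90 and 4.57 in WT and 6.70, 7.59 and 7.05 in SMA. In LMC it was 5.48, 6.79 and 5.18 in WT and 7.96, 8.88 and 7.73 in SMA. The genotypes did not overlap in either column, and the LMC difference of 2.37 was the larger next to 1.68 in MMC. In DRG and raphe the genotypes overlapped, with differences of -0.52 and -0.55. Tubb6 passed under 8 of the 39 alternatives; its adjusted p was 0.0148 without WT LMC replicate 2 and 0.0354 without SMA raphe replicate 3.

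Dennd3 was a gene of 1 group. Its level was 6.86, 6.05 and 7.44 in SMA MMC, the only group in which all 3 arrays detected it, and at least 2.85-fold above the background limit of WT MMC. In the other 7 groups it was detected on 1 array in all, a WT raphe array. Dennd3 entered the test through SMA MMC only, and 6 of its 8 groups lay below background. The fitted values of MMC minus the other tissues (2.24, adjusted p = 0.00184) and of MMC minus LMC (2.11, adjusted p = 0.0374) are therefore not read as differences between tissues.

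For Polk the other tissues took part. Its level in raphe was 6.40, 6.47 and 6.72 in WT and 4.53, 6.02 and 4.43 in SMA, a difference of -1.54. In LMC it was 5.22, 5.34 and 4.43 in WT and 7.21, 7.12 and 6.52 in SMA, a difference of 1.95. Opposite shifts thus entered the contrast, and Polk passed against raphe alone with 2.85 (adjusted p = 0.0463) but not against DRG, where the value was 1.14 (adjusted p = 0.967).

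**Figure D2:**
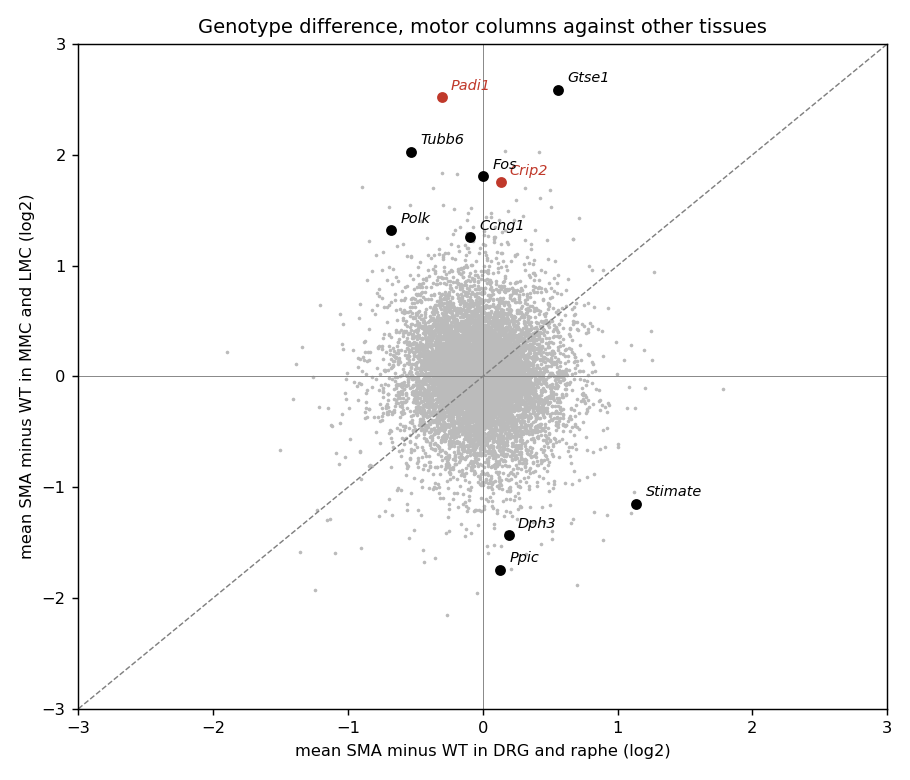
Mean SMA minus WT difference in MMC and LMC against the mean in DRG and raphe for the 11198 genes tested other than Smn1 (log2, grey points), with the dashed line at equal differences. Crip2 and Padi1, in red, passed in the interaction; the genes named in black did not.

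In the lower direction 0 genes passed by limma, beside the 324 at an unadjusted p under 0.05. The 10 genes of smallest p were Tmem231 (-1.47), Polr1a (-1.66), Dph3 (-1.63), Stimate (-2.29), Dgkk (-1.98), Fbxo45 (-2.37), Syndig1l (-1.67), Socs7 (-0.998), Ppic (-1.87) and Acrbp (-1.37), all with an adjusted p between 0.2295 and 0.263. Tmem231 belongs to the gate at the base of cilia, Polr1a is the large subunit of RNA polymerase I, Dph3 takes part in making diphthamide, Stimate acts on calcium entry, Dgkk is a lipid kinase, Fbxo45 is part of a ubiquitin ligase and Ppic is a cyclophilin.

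On their brightest probes Dph3 and Ppic were lower in both columns. In MMC the level of Dph3 was 9.48, 8.24 and 10.25 in WT and 8.16, 7.85 and 6.82 in SMA, and in LMC 9.68, 9.08 and 9.57 in WT and 8.68, 7.79 and 8.40 in SMA. The genotypes did not overlap in either column, whereas in DRG and raphe the differences were 0.14 and 0.25. Dph3 passed in 1 of 39 alternatives, without WT MMC replicate 2 (adjusted p = 0.0278). For Ppic the differences were -1.61 in MMC and -1.88 in LMC, without overlap, against 0.31 in DRG and -0.05 in raphe. The other probes of both genes, detected on all 24 arrays, did not repeat these decreases. Those of Dph3 gave 0.39 and 0.09 in MMC and 0.29 and 0.32 in LMC. That of Ppic gave 0.42 in MMC and -0.22 in LMC.

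On its brightest probe Polr1a was lower in MMC alone among the columns. It was 7.14, 8.31 and 7.50 in WT MMC and below background on every SMA MMC array, so that WT stood at least 5.01-fold above that limit. The LMC difference was 0.24, and MMC minus the other tissues was fitted at -3.06 (adjusted p = 0.00555), a size that is not exact for the same reason. On the other Polr1a probes above background on at least 3 arrays, the MMC differences were -0.35, -0.17 and 0.65. The loss was thus not seen at that size on its other probes. Socs7, a suppressor of cytokine signalling, and Acrbp, a protein of the sperm acrosome, entered the list largely through raphe. Socs7 there was below background on every WT array and at least 2.04-fold above that limit in SMA. Acrbp, with a raphe difference of 1.77, was detected on all 3 arrays in SMA raphe only. Tmem231 was below background on every SMA array of both columns, where WT stood at least 1.87-fold (MMC) and 1.47-fold (LMC) above the limit.

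Other probes of the same gene gave the same sign for some genes and not for others. For Dph3 the other probes gave interactions of 0.38 and -0.02, for Fbxo45 0.01, for Syndig1l 0.04, for Ppic 0.38, for Acrbp 0.23, for Tmem231 -0.05, for Socs7 -0.70 and for Polr1a -0.01, -0.17 and -0.30. For Dgkk they gave -1.79 and 0.21. In the p53 pathway the other probes of Ccng1 gave 0.78 and 1.54, those of Gtse1 0.74 and 1.54, those of Cdkn1a 1.99 and 0.78 and those of Mdm2 1.03 and 0.06. Thus each of these 4 genes kept the sign of its interaction on every probe above background on at least 3 arrays. Dph3, Ppic, Fbxo45, Syndig1l, Acrbp and Dgkk did not. Among the higher genes Itpripl1 gave -0.13 on its other probe and Tle4 gave 0.87 and -0.03. Tubb6, Polk, Dennd3, Flad1 and Stimate had no other probe.

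**Figure D3:**
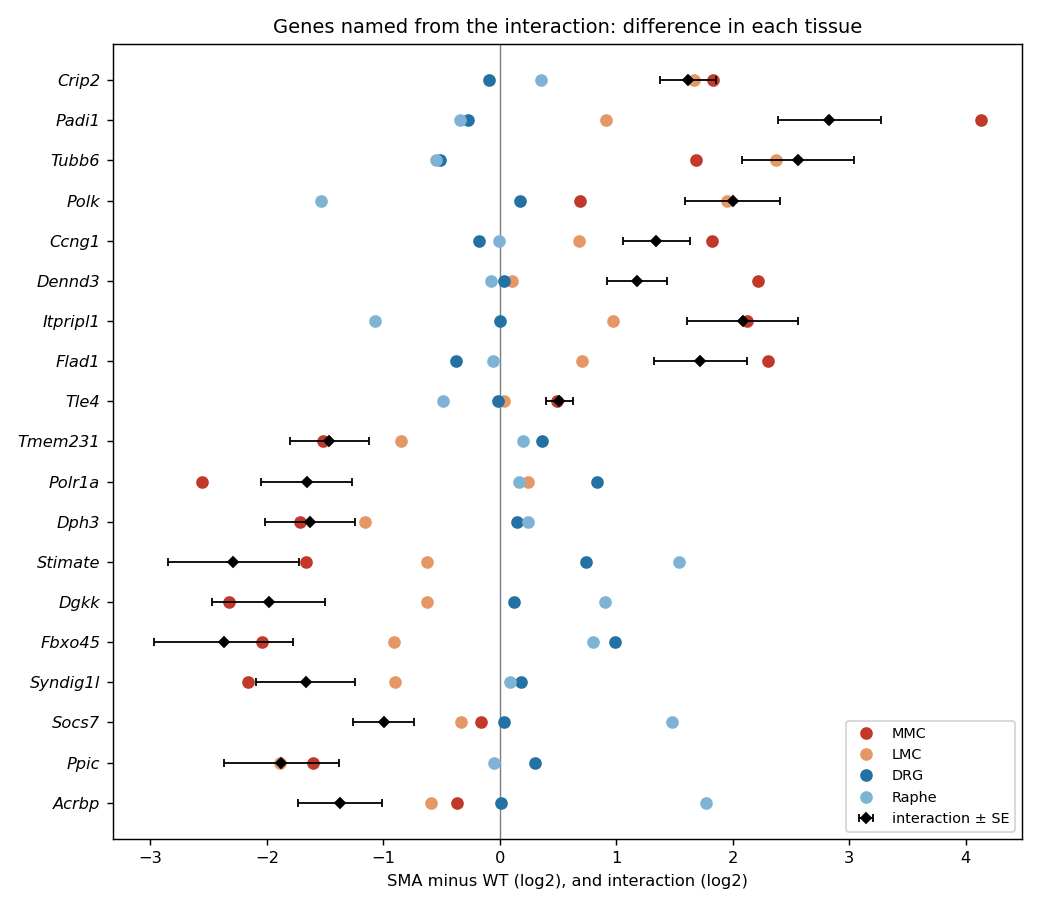
SMA minus WT difference in each tissue (log2, coloured points) and the interaction with its standard error (black diamonds) for the 9 higher and 10 lower genes named. In most of these genes the MMC point lies farthest from 0, and Polk, Socs7 and Acrbp have their raphe point far from the others.

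Each side of the contrast was also tested by itself. The mean difference of the motor columns passed for 27 genes (0.241%), 20 higher and 7 lower, and that of DRG and raphe for 1 gene (0.00893%), which was Smn1; by unadjusted p under 0.05 these counts were 1184 (10.6%) and 394 (3.52%). Without Smn1, 26 genes passed in the motor columns, and all 26 had an interaction of the same sign with an unadjusted p under 0.05, of which 2 passed after adjustment. Their median absolute difference was 1.49 in the motor columns and 0.13 in the other tissues. Some of the 26 lay below background there, so that a difference near 0 is not a measured one. Car12 did so in both genotypes of DRG and of raphe, and Dennd3, Tcea3 and Dcxr in both genotypes of DRG. That the 26 genes passed in 1 side of the contrast is no test of the contrast. A missed threshold in DRG and raphe does not show that they were level there. Leaving out 1 array moved the count of 27 to 9, 14 and 16 where WT LMC replicates 1, 2 and 3 were dropped, to 48 for SMA LMC replicate 3, to 47 for WT MMC replicate 2 and to 42 for SMA MMC replicate 2. It was 4 with a replicate block by genotype and 12 with array weights by tissue.

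Selection by the mean of both columns favours the same sign in both. Over all genes the differences also spread more in MMC (SD 0.61) than in LMC (SD 0.48). As a description only, the MMC difference was the larger in 23, and the LMC difference had the same sign in all of these 26 genes. Among them were Gtse1, Perp, a membrane protein of p53-driven cell death, Dcxr, a reductase of sugars, Fos, Car12, a carbonic anhydrase, Plek2, a pleckstrin, and, lower in SMA, Cux1, a homeobox factor, and Adam22, a receptor at synapses. Of these, Fos, an immediate early transcription factor, was 5.15, 6.01 and 6.90 in WT MMC and 8.25, 7.55 and 8.73 in SMA MMC. In LMC it was 5.44, 5.92 and 7.07 in WT and 7.37, 8.34 and 7.13 in SMA. Fos was not detected on any SMA DRG array, and its interaction of 1.81 did not pass (adjusted p = 0.239). The lower value of Cux1 was that of its brightest probe. On its other probes above background on at least 3 arrays, the motor column mean differences were 0.04 and 0.08. For Adam22 such probes gave -0.85 and -0.41.

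The contrast was then split by column and by reference tissue. MMC minus the other tissues passed for 11 genes (0.0982%), 9 higher and 2 lower, and LMC minus the other tissues for 0 genes by limma, with 566 (5.05%) at an unadjusted p under 0.05. The share called for LMC was thus 0%. The 11 were Padi1, Dennd3, Polr1a, Crip2, Tcea3, Ccng1, Ranbp3l, Dcxr, Flad1, Cpb1 and Tle4, of which Ranbp3l and Cpb1 are named after their values were seen. For Crip2, Ccng1, Flad1 and Tle4 no group lay below background. For the other 7 at least 1 group did, and Dennd3 and Dcxr entered through SMA MMC only, so that their fitted sizes are not exact. Against DRG alone 1 gene passed (Crip2, 0.00893%), and against raphe alone 3 did (0.0268%): Polk and, again named after their values were seen, the neuropeptide genes Npy and Crh, both detected on all 3 arrays in WT raphe only. The count against DRG was 0 when any 1 of 11 arrays was left out, with median scaling and without the variance trend. The count against raphe ran from 0, without SMA raphe replicate 3, to 10, without WT MMC replicate 2, and was 0 where detection in 2 groups was required. The MMC count moved to 75 without WT MMC replicate 2 and to 3 without SMA DRG replicate 1, SMA DRG replicate 2 or WT raphe replicate 3, and the LMC count to 1 without SMA raphe replicate 2. Whether the columns differ in number of responding genes was not tested.

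Few genes separated the genotypes in both columns. SMA arrays lay above all WT arrays in both MMC and LMC for 56 genes (0.5%) and below them in both for 41 (0.366%). The same counts for DRG with raphe were 29 (0.259%) and 26 (0.232%), and for MMC with raphe 50 (0.446%) and 40 (0.357%). Pairing the columns with each other gave 97 genes in all, and the shares for MMC with raphe lay close to those. Across the 11199 genes the MMC and LMC differences had a Pearson correlation of 0.06, and the 6 pairs of tissues lay between -0.10 and 0.06. These are descriptions across genes, which are not independent replicates and whose values share arrays within a tissue.

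The p53 targets, a list of 52 genes of which 41 were tested, leaned higher in the motor columns. In the interaction 36 of 41 lay above 0, with a median of 0.53 beside 0.04 over all genes, and 13 had an unadjusted p under 0.05 in the higher direction (4.74% of all genes) and 0 in the lower. After adjustment over all genes 0 of 41 passed. Their median difference came to 0.69 for MMC and 0.43 for LMC, beside -0.05 for DRG and 0.02 for raphe. In the mean of the motor columns 7 of 41 passed (0.241% of all genes): Ccng1, Gtse1, Dcxr, Perp, Zfp365, Mdm2 and Cdkn1a. The count of all genes behind that share fell from 27 to 4 with a replicate block by genotype. Of the 41, 5 entered the test through 1 group only, Dcxr among them, as did 844 of all 11199 genes.

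Ccng1 encodes cyclin G1, a long-known target of p53. In MMC it was 9.65, 8.84 and 9.38 in WT and 10.59, 11.32 and 11.44 in SMA. In LMC it was 10.06, 9.76 and 9.86 in WT and 11.15, 9.93 and 10.65 in SMA. The MMC groups stood apart, while in LMC 1 SMA array lay within the WT range. Ccng1 in DRG ran from 10.08 to 10.72 in WT and from 9.94 to 10.64 in SMA, and in raphe from 9.09 to 9.59 in WT and from 9.32 to 9.47 in SMA. Its interaction was 1.35 (SE 0.29, adjusted p = 0.2295), and it passed under 4 of 39 alternatives, among them without SMA LMC replicate 2 (adjusted p = 0.0231).

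Gtse1, a microtubule-binding protein of dividing cells that acts on p53, had the largest interaction of the list, 2.03 (SE 0.49, adjusted p = 0.2295). In MMC it was 6.32, 6.49 and 7.08 in WT and 10.18, 10.11 and 10.01 in SMA, and in LMC 7.39, 5.39 and 6.70 in WT and 8.30, 8.10 and 8.20 in SMA. In raphe it was 5.56, 5.58 and 5.76 in WT and 6.48, 7.52 and 5.90 in SMA. The genotypes stood apart in both columns and also in raphe, where the difference was 1.00, against 0.12 in DRG.

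Cdkn1a, the cell cycle inhibitor p21, behaved less evenly. In MMC it was 10.19, 10.64 and 10.92 in WT and 12.25, 12.33 and 12.39 in SMA, and in LMC 9.13, 9.42 and 9.61 in WT and 11.48, 8.70 and 10.71 in SMA. The low LMC value was that of SMA replicate 2, the array with the fewest probes detected. The raphe difference was 0.86 next to 0.91 in LMC, and DRG gave -0.53. The interaction was 1.16 (adjusted p = 0.482), and 1.56 without SMA LMC replicate 2 (adjusted p = 0.00559). Mdm2, the ubiquitin ligase that limits p53, stood apart in both columns, with an interaction of 0.65 (adjusted p = 0.489). In LMC the other probes of Mdm2 gave differences of 0.64 and -0.38, and those of Cdkn1a 0.75 and -0.01.

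Over the list, 35 of 41 targets were above 0 in MMC, where 53% of all genes were, and 28 in LMC (53.2% of all genes). In DRG 19 were above 0 (45.3% of all genes) and in raphe 22 (48.1%). The MMC difference exceeded that of LMC in 28 of 41, and in 50.8% of all genes. SMA and WT arrays did not overlap in either column, with SMA higher, for 7 of 41 (17.1%, beside 0.5% of all genes): Gtse1, Mdm2, Perp, Plk2, Polk, Trp53inp1 and Zfp365, of which Plk2 and Trp53inp1 are named after their values were seen. None was lower without overlap in both columns, where 0.366% of all genes were. None stood without overlap in both DRG and raphe, where 0.259% of all genes were higher and 0.232% lower. These counts of 0 lie near the shares of all genes. In MMC and raphe together, SMA was higher without overlap for 2 of 41 (4.88%, beside 0.446% of all genes), Cdkn1a and Gtse1. The median interaction of the list stayed between 0.18 and 0.60 over the 39 alternatives, lowest with the authors' normalized values. The list was drawn up with earlier results of these data known and is no independent evidence of its direction.

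**Figure D4:**
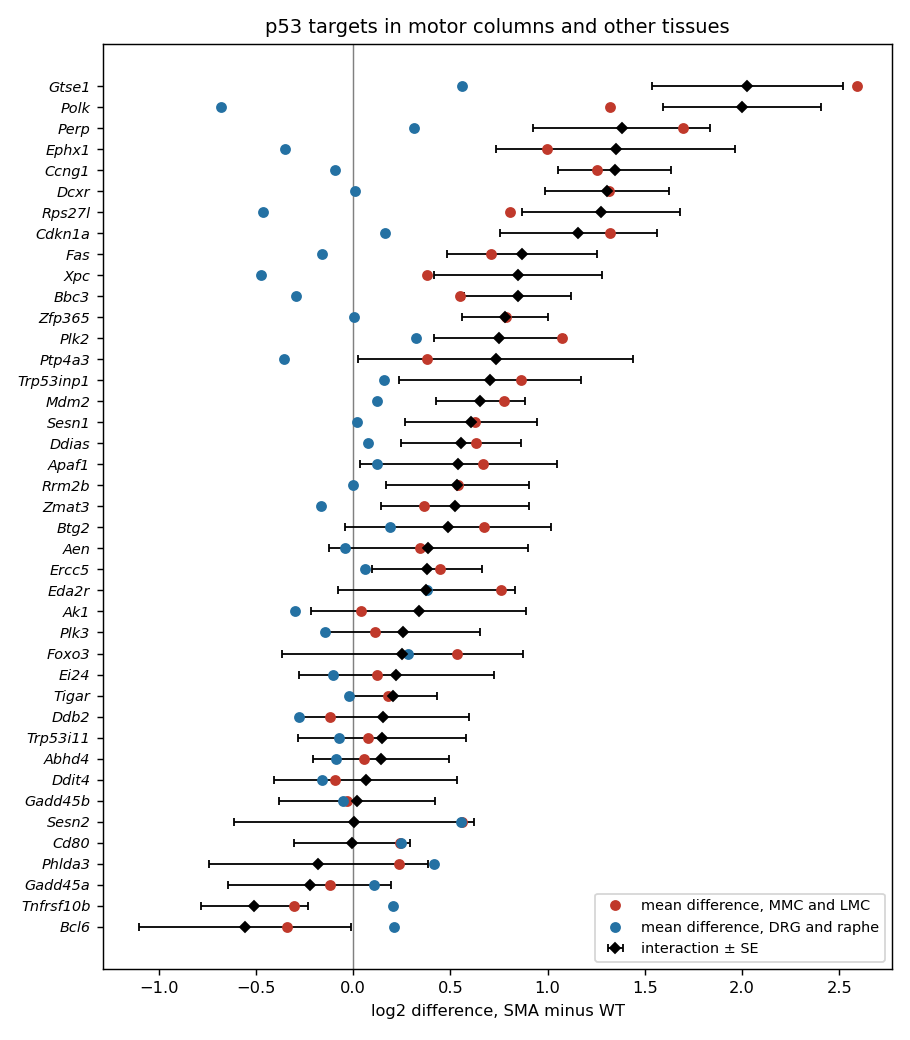
Interaction with its standard error (black), mean difference in MMC and LMC (red) and mean difference in DRG and raphe (blue) for the 41 p53 targets tested, in log2 and ordered by the interaction. The interaction lies above 0 for 36 of 41, and the red points lie to the right of 0 more often than the blue ones.

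Genes that mark motor neurons leaned the other way. Of 27 tested, 9 lay above 0 in the interaction, where 54.5% of all genes did, and the median was -0.22. At an unadjusted p under 0.05, 5 were lower (2.89% of all genes) and 1 higher (4.74%); 0 passed. The median difference was small in each tissue: -0.13 for MMC, -0.05 for LMC, -0.05 for DRG and -0.12 for raphe. Chodl, a marker of fast motor neurons, was 11.70, 11.96 and 11.85 in WT MMC and 10.20, 10.48 and 10.80 in SMA MMC, while the LMC difference was 0.01. The other probes of Chodl, each detected on 9 arrays, gave -0.33 and -0.19 in MMC and -1.23 and -0.03 in LMC. The pattern of its brightest probe was thus not repeated on them. Mmp9, a protease known from the fast motor neurons of mice, was 7.15, 8.60 and 8.23 in WT MMC and 6.53, 5.64 and 5.34 in SMA MMC, with an LMC difference of 0.14. The interactions were -0.90 (adjusted p = 0.461) and -1.13 (adjusted p = 0.519), while Tns1 was detected on all 3 arrays in SMA raphe only and its value is not read. Foxp1, a factor that defines limb-muscle motor neurons, was lower in both columns, by -1.47 in MMC and -1.21 in LMC. It is named after its values were seen. These are values of its brightest probe, and other probes were not set beside it.

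Not every motor neuron gene took part. Chat, which makes acetylcholine, had an interaction of -0.19 and differences of 0.04 in MMC and -0.04 in LMC. The summed level of the 27 markers lay between 14.58 and 14.59 in WT MMC and between 14.22 and 14.32 in SMA MMC, without overlap. In LMC it lay between 14.84 and 14.95 in WT and between 14.74 and 14.92 in SMA. A lower summed level of motor neuron markers in SMA MMC thus stood beside the gene differences given above for MMC, and its part in them was not tested.

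Several large gene groups had medians of opposite sign in the columns, a difference that was not tested. How far single arrays carried these medians was not tested either. Of 44 replication-dependent histone genes, 40 lay above 0 in MMC (median 0.68), where 53% of all genes did, and 10 in LMC (median -0.25), where 53.2% did, with an interaction median of 0.09. In raphe 34 of the 44 lay above 0 (median 0.24), where 48.1% of all genes did. Of 51 cytosolic ribosomal protein genes, 48 lay above 0 in MMC (median 0.32) and 13 in LMC (median -0.28), with an interaction median of 0.08. The 52 genes of oxidative phosphorylation had an interaction median of 0.03, with 28 above 0. No gene of these 3 lists passed in the interaction, and their smallest unadjusted p-values belonged to H2bc6 (1.20), Rps20 (0.93) and Atp5b (0.28).

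Lists close to the biology of SMN and of the neuron gave small medians. The interaction median was -0.03 for 28 genes of the SMN complex and small nuclear ribonucleoprotein assembly (13 above 0, Ddx20 at -0.60), -0.07 for 16 genes of intrinsic apoptosis (7 above 0, Bcl2l1 at -1.17) and 0.25 for 14 chromosome 13 neighbours of Smn1 (10 above 0, Cartpt at 1.56). It was 0.00 for 31 genes of neurofilaments, microtubules and axonal transport (16 above 0), -0.09 for 26 synaptic vesicle and SNARE genes (11 above 0, Snap25 at -0.52) and 0.27 for 33 voltage-gated channels (22 above 0, Kcnd2 at 1.04). Within the microtubule list Map1a, a microtubule-associated protein, stood at -1.36. The tubulins Tubb2b and Tuba1a lay between 14.05 and 15.05 on every array, at the top of the scale where quantile normalization leaves few distinct values, and their interactions are not read. None of these genes passed after adjustment.

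Lists of stress and immunity were described in the same way. The interaction median was 0.28 for 17 immediate early and axon injury genes (12 above 0, led by Fos), 0.06 for 24 genes of the unfolded protein and integrated stress response (15 above 0, Chac1 at 1.51) and -0.09 for 17 cholesterol synthesis genes (8 above 0). For 13 genes of complement and MHC class I it was 0.06 (7 above 0), for 12 interferon response genes 0.15 (8 above 0) and for 21 mitotic cell cycle genes 0.00 (10 above 0). Gbp5, a guanylate-binding protein of the interferon response, was detected on all 3 arrays in SMA MMC only, at least 3.39-fold above the background limit of WT MMC, and its interaction is not read. In none of these lists did a gene pass.

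Markers of other cells that a sample could hold had medians between -0.12 and 0.26. The interaction median was -0.12 for 11 oligodendrocyte markers (5 above 0), 0.26 for 12 astrocyte markers (10 above 0), 0.21 for 10 microglia and macrophage markers (8 above 0) and 0.00 for 11 endothelial and pericyte markers (5 above 0). It was 0.08 for 12 Schwann cell and satellite glia markers (7 above 0), 0.13 for 15 sensory neuron markers (11 above 0) and 0.08 for 11 interneuron markers (7 above 0). Of the microglia markers Laptm5 stood at 0.80, and their summed level in LMC lay between 9.48 and 10.64 in WT and between 10.61 and 11.31 in SMA. No astrocyte marker reached an unadjusted p under 0.05 in the interaction, where 7.63% of all genes did. With 12 markers, a count of 0 lies near that share. The part of these cell types in the results for Crip2, Padi1 and the p53 targets was not tested.

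Values also differed between genotypes in the reference tissues. In raphe 8 of 8 serotonergic neuron markers lay above 0, where 48.1% of all genes did (45.3% in DRG), with a median of 0.68, and their summed level was 12.50 to 13.02 in WT and 13.30 to 13.82 in SMA, without overlap. Their interaction median was accordingly -0.19, with 2 of 8 above 0, and Gch1, which serves serotonin synthesis, stood at -1.30 (adjusted p = 0.362). The 4 blood cell markers tested, mainly beta-globins, were lower in SMA in all 4 tissues, with medians of -1.33 for MMC, -1.14 for LMC, -0.38 for DRG and -2.14 for raphe, and left an interaction median of -0.06. A gene such as Polk, Socs7 or Acrbp, whose interaction rests in part on raphe, was thus measured in a tissue where these markers also differed between genotypes, and their part in it was not tested.

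**Figure D5:**
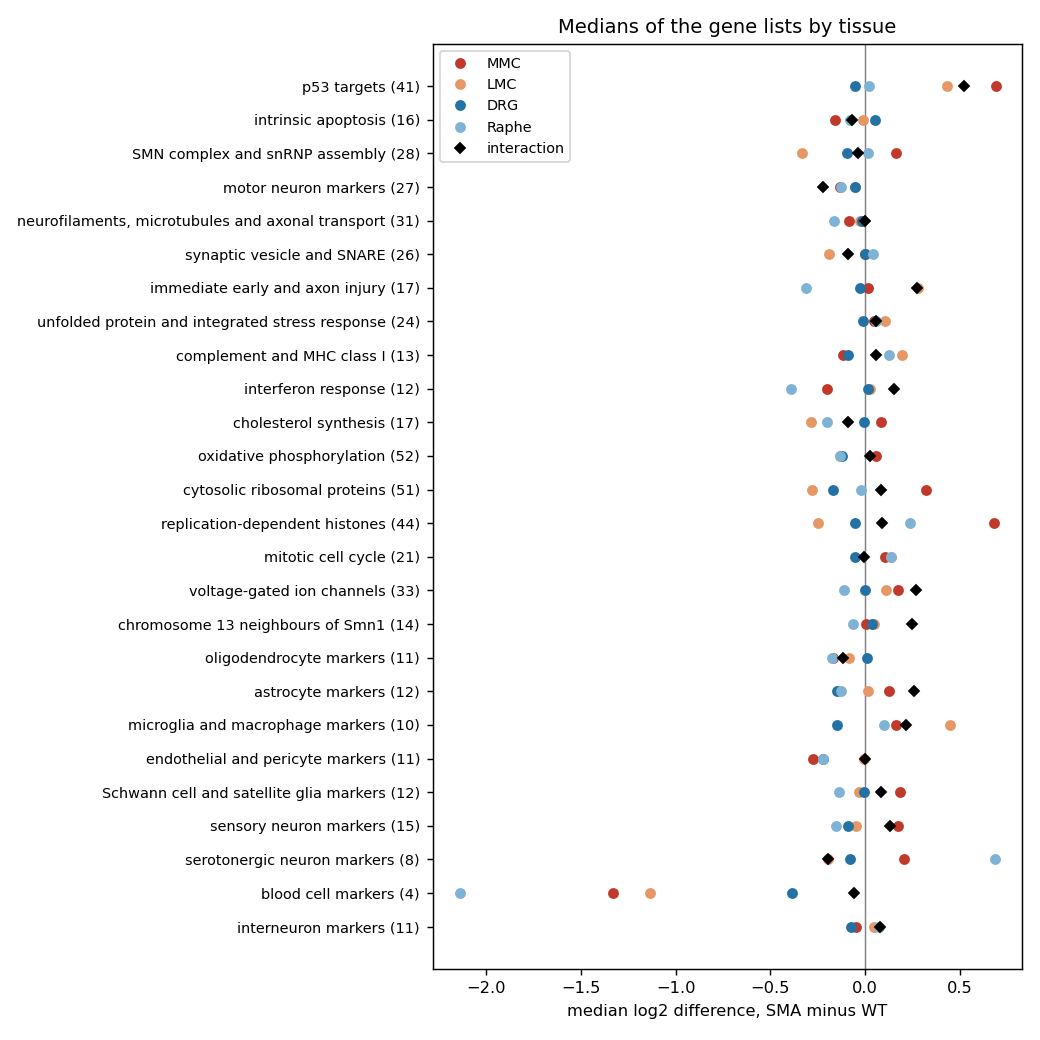
Median SMA minus WT difference in each tissue (log2, coloured points) and median interaction (black diamonds) for the gene lists, with the number of genes tested in brackets. The p53 targets have their MMC and LMC medians above 0 and their DRG and raphe medians near it, while histone and ribosomal protein genes have opposite medians in MMC and LMC.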

How the data were processed

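The 24 single-colour Illumina arrays form 8 groups of 3 by their titles. The authors deposited, per the file headers, intensity values with a detection p-value per probe (45281 probes). GenomeStudio is named in the submitters' processing notes; signals below 0 occur. The authors also deposited normalized log2 values, used as an alternative. All 24 columns, with medians of 7.54 to 7.57, ranked probes as their own array's signals did and were not centred by gene (slope on log2 signal 0.839 to 0.993); the method is unknown.

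Intensities were corrected by normexp, from detection p-values with an offset of 16, and quantile-normalized with limma 3.58.1 in R 4.3.3. The brightest probe stood for each gene; 34885 probes had 1 symbol, 18 several and 10378 none. A model of 8 group means left 16 residual degrees of freedom; moderated two-sided tests with a mean-variance trend were adjusted by Benjamini-Hochberg over 11199 genes at 0.05. A gene counts as detected at p under 0.05. The scripts were tested on simulated data. Where every array of a group lay below background, folds are bounds against the lowest detected level. Array number limits precision.

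Members, rules and lists were chosen with earlier results of these data known. Named genes are those that pass, then those of smallest p up to 10 per direction, 10 fixed genes, and the 3 of smallest p per list; 1 gene of the higher direction is not reported here. Replicate numbers were not shown to pair samples: deviations of same-numbered arrays correlated between -0.379 and 0.323. No 2 arrays were duplicates (highest correlation 0.986).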

Additional observations from a re-analysis of the deposited data

Results flagged for a closer look

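The genotype effect differed between tissues, by the moderated test of the difference itself, for the genes that follow. In the motor columns against DRG and raphe these were Crip2 (1.62, adjusted p = 0.00925) and Padi1 (2.83, adjusted p = 0.00956). In MMC against the same 2 tissues they were Flad1 (2.52), Ccng1 (1.92), Crip2 (1.70) and Tle4 (0.74), each detected on at least 2 arrays of every group. Padi1 (4.44) and, lower, Polr1a (-3.06) also passed, with sizes that are not exact because a group lay below background. The other probes of Polr1a above background on at least 3 arrays gave SMA minus WT differences of -0.35, -0.17 and 0.65 in MMC. The fit called Dennd3 (2.24 in MMC against the same 2 tissues, 2.11 against LMC), Tcea3 (2.59) and Dcxr (2.05) as well. These 3 lay below background in WT MMC and in both DRG groups, so that only bounds of at least 2.85-fold, 5.48-fold and 2.89-fold in MMC are measured and no difference between tissues is read; the other probe of Tcea3, an elongation factor, gave -0.31 in the interaction. The motor columns differed from DRG alone for Crip2 (1.84), a call lost when any 1 of 11 arrays was left out, with median scaling and without the variance trend. They differed from raphe alone for Polk (2.85), where no gene passed without SMA raphe replicate 3 or with detection required in 2 groups. All values are log2 differences between 2 SMA minus WT differences, and their causes were not tested.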

How the results depend on the processing

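Of 39 alternatives, 24 left out 1 array and 15 changed another choice; 2 of the 15, the detection floor and the set without the 3 arrays of lowest correlation (WT MMC 3, SMA LMC 2 and WT DRG 1), were chosen after seeing the data. Crip2 passed in all 39 and Padi1 in 38. The counts of genes passing, which were 2 for the interaction, 27 for the motor column mean, 1 for DRG and raphe, 11 for MMC minus the other tissues, 0 for LMC minus the other tissues, 1 against DRG and 3 against raphe, depended on the setting more; the cause was not tested.

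With the deposited normalized values the interaction count was 5, that of DRG and raphe 3, MMC minus the others 37, against DRG 3 and against raphe 18. An offset of 50 gave 2 for DRG and raphe, 2 against DRG and 8 against raphe; signals floored at 16 gave 1 for the interaction, 2 for DRG and raphe and 6 against raphe. Median scaling gave 2 for DRG and raphe, 0 against DRG and 5 against raphe, and normalization within each tissue 2 for DRG and raphe and 5 against raphe. The mean of detected probes gave 6 for the interaction, 6 for DRG and raphe, 17 for MMC minus the others and 12 against raphe. Requiring detection in 2 groups gave 0 against raphe, and no filter gave 5 for MMC minus the others and 1 against raphe. Array weights gave 13 for the interaction, 19 for DRG and raphe, 17 for MMC minus the others, 10 against DRG and 18 against raphe; weights by tissue gave 12 for the motor column mean, 9 for DRG and raphe, 5 for MMC minus the others, 2 against DRG and 7 against raphe. Without the variance trend the counts were 4 for DRG and raphe and 0 against DRG. The detection floor gave 2 for DRG and raphe. Without the 3 arrays the counts were 5 for the interaction, 44 for the motor column mean, 49 for MMC minus the others, 2 against DRG and 5 against raphe.

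With the replicate number as a block, MMC minus the others gave 7, against DRG 2 and against raphe 5; with a replicate block by genotype the motor column mean gave 4, MMC minus the others 4 and against raphe 6. The numbers were not shown to pair samples: of 36 same-genotype pairs 2, and of 48 others 5, correlated above 0.1.

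Leaving out 1 array gave 2 to 4 for the interaction (4 without SMA LMC 2), 9 to 48 for the motor column mean, 1 to 4 for DRG and raphe, 3 to 75 for MMC minus the others, 0 to 1 for LMC minus the others, 0 to 2 against DRG and 0 to 10 against raphe. For DRG and raphe the arrays that did so were SMA LMC 2 (3) and 3 (2), WT raphe 3 (3) and SMA raphe 1 (4). For MMC minus the others they were, beside those named in the results, WT MMC 3 (32), SMA MMC 1 (20) and 2 (34), SMA LMC 1 (17) and 2 (34), WT raphe 2 (5) and SMA raphe 2 (7). The call of Crip2 against DRG was lost without any of 11 arrays, and the count against raphe moved by over 1.5 times without 15. Smn1, a bound on every SMA array, changed sign in 8 alternatives: 0.17 with array weights, 0.16 with the detection floor, 0.20 without the 3 arrays, and -0.17 to 0.13 over the 24 fits with 1 array left out. Chat ran from -0.39 to 0.0814 over those fits, the latter without WT MMC 2.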

Other observations

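Probes without a single gene symbol were fitted in the same way. Of 22198 probes detected on all 3 arrays of a group, 2 passed in the interaction, those of Crip2 and Padi1. Of the 3792 among them without a single symbol 0 passed by limma, while 263 (6.94%) had an unadjusted p under 0.05. The probes that carry a symbol, 18406 in number, had such a p in 7.6%.

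The genes at an unadjusted p under 0.05 in the interaction were described by the tissue in which their difference was farthest from 0. This was MMC for 52.9% of the 855 genes and for 36.9% of all genes tested, LMC for 19.1 and 27.2%, DRG for 6.55 and 12.9% and raphe for 21.5 and 23%. Both columns stood beyond both other tissues in the direction of the interaction for 715 of the 855 (83.6%) and for 3367 of 11199 genes (30.1%). The interaction that chose the 855 genes uses the same values, so these shares are descriptions. The SD of the SMA minus WT differences over all genes came to 0.61 for MMC, 0.48 for LMC, 0.32 for DRG and 0.45 for raphe, in the same order as the median SD within groups for MMC, LMC, raphe and DRG.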
